A study of Mus musculus with 7 samples.

Results

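The endothelial genes described here are Pecam1, Cdh5, Kdr, Flt1, Tek, Tie1, Emcn, Eng, Sox17 and Erg, 10 genes chosen by symbol from the 25461 genes of the deposited expression table. They were measured in 7 whole embryos taken at E11.5 from mice of the B6C3F1 strain, with the tail removed for genotyping. The 4 WT embryos (KOAC8-1, KOAC10-7, KOAC9-1 and KOAC10-2) were compared with 3 SLMAP3 knockout embryos (KOAC8-6, KOAC10-5 and KOAC10-8), here KO, to ask how loss of SLMAP3 bears on transcript levels in the embryo. SLMAP3 is the long, tail-anchored membrane protein made from the Slmap gene. The KO allele lacks a loxP-flanked exon 3, which was removed in the germ line with CMV-cre, and the allele was then bred on without cre, so that every cell of a KO embryo carries it. The shorter isoforms SLMAP1 and SLMAP2 are not removed, and the labels name no treatment of either group. Expression is given in FPKM, that is fragments per kilobase of transcript after correction for library depth, so that levels of different genes can be set side by side.

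Endothelial cells line blood vessels, lymphatics and the heart. They recognise vascular endothelial growth factor (VEGF) through the receptor tyrosine kinases Kdr, the main signalling receptor, and Flt1, which binds the ligand tightly but signals weakly and acts largely as a decoy in the embryo. The angiopoietins act through Tek (also called TIE2) with its relative Tie1, and endoglin (Eng) is a co-receptor for BMP ligands. At mid-gestation these genes mark the growing vessels of every organ.

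All 10 genes were placed on the GENCODE M21 annotation of GRCm38. The VEGF receptor genes lie on chromosome 5, Flt1 at 147561604 to 147726011 on the minus strand with 6 annotated transcripts and Kdr at 75932827 to 75978458 on the minus strand. The TIE receptor genes lie on chromosome 4, Tek at 94739289 to 94874976 on the plus strand and Tie1 at 118471191 to 118490061 on the minus strand. The values are 1 per gene, so the soluble and membrane-bound forms of Flt1 were not separated. Sox17 (chromosome 1, 4490931 to 4497354, minus strand) overlaps Gm37587 on the opposite strand and shares 15.0% of its 50-base stretches of transcript sequence with it. The library kit does not mark strand, so reads from Sox17 and that neighbour cannot be told apart in the shared part. The same holds for Eng and its opposite-strand neighbour Fpgs, over 0.288% of the stretches of Eng. Cdh5 is overlapped by the antisense gene Gm29682 but shared no stretch with another gene, and Pecam1 shared 1.54% of its stretches with other genes.

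The 4 receptor tyrosine kinases carry the comparison within receptor pairs below, and the 250 bases before the RefSeq start site of each (GRCm38.p6) are shown for that reason. They are written 5′ to 3′ on the strand of the gene, with the ETS core GGAA, or TTCC where it lies on the opposite strand, in capitals.

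Flt1, chr5:147726012-147726261, minus strand: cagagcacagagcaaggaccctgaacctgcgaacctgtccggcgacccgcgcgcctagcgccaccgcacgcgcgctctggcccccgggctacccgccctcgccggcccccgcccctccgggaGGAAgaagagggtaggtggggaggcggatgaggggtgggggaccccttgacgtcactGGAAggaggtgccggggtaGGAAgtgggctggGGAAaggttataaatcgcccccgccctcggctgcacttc
Kdr, chr5:75978456-75978705, minus strand: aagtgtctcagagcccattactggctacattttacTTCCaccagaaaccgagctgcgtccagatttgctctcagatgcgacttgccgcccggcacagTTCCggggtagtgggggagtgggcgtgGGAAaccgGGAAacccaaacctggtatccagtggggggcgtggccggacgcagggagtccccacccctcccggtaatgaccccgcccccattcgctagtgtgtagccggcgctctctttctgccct
Tek, chr4:94739039-94739288, plus strand: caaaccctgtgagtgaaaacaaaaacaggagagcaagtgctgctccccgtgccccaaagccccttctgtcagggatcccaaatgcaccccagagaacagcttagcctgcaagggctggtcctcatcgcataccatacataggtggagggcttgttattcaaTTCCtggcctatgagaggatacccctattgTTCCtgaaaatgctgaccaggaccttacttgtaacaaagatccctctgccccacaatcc
Tie1, chr4:118489850-118490099, minus strand: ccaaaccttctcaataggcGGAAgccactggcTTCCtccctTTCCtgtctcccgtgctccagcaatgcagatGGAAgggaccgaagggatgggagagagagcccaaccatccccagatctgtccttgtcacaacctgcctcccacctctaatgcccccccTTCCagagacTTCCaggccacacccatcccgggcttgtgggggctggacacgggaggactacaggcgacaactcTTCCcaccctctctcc

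ETS factors, to which Erg belongs, bind sites built on GGAA. The window of Flt1 held 4 such matches, that of Kdr 4, that of Tek 2 and that of Tie1 7. RefSeq and GENCODE place the start of Tie1 differently. Most of the Tie1 window therefore lies inside the gene as GENCODE places it, with its minus-strand start at 118490061. RefSeq promoters were matched for 7 of the 10 genes with 9 start sites, which left Cdh5, Pecam1 and Sox17 without one. GGAA was found in 8 of these 9 windows and in 93.4% of 32851 windows of the same length over all genes. The longer form CCGGAA, which contains GGAA, was in 1 of the 9, that of Kdr, and in 12.03% of all windows, and ACAAT, a form bound by SOX factors such as Sox17, was in 3 of the 9 and 27.7% of all. These matches describe the letters alone.

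The targeted gene was examined first. The level of Slmap was 19.6, 16.0 and 16.6 FPKM in KO (KOAC8-6, KOAC10-5 and KOAC10-8, in that order) and 31.2, 23.9, 29.1 and 22.8 FPKM in WT (KOAC8-1, KOAC10-7, KOAC9-1 and KOAC10-2). These orders are kept for all values below. The KO values were all lower than the WT values (two-sided p = 0.0286 by exact permutation, which is as small as 3 against 4 embryos permit), while the adjusted p of limma over all genes was 0.278 with a log2 fold change of -0.59 ± 0.13 (SE). The value sums all isoforms of the gene, so it does not isolate SLMAP3. Each embryo's FPKM values summed to between 770063 and 861448, and depth relative to the average, read from the steps between low values, ran from 0.81 to 1.22. The labels do not say from how many litters the embryos came, and the label series KOAC9 holds a WT embryo only. Transcripts of the liver were nearly missing from 3 embryos, 1 KO and 2 WT: Afp, the fetal serum protein made by hepatoblasts, was at 255, 5.18 and 308 FPKM in KO and 376, 1.30, 278 and 2.49 FPKM in WT embryos. Alb, serum albumin, had the same pattern, with 1.63 FPKM in KOAC10-5, 0.313 in KOAC10-7 and 0.885 in KOAC10-2 against 65.2 FPKM or more in the others. Of the 8 hepatoblast markers, 0 were past an unadjusted p of 0.05 between the genotypes, and their summed level was 10.1 to 486 FPKM in KO and 4.78 to 730 FPKM in WT embryos.

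All 10 endothelial genes were above 1 FPKM in all 7 embryos, and they fell into a high and a low group that did not overlap. Averaged over the 7 embryos, Cdh5 was at 22.1, Eng at 17.2, Pecam1 at 16.8, Emcn at 15.9, Kdr at 14.7 and Tie1 at 12.1 FPKM. The low group held Erg at 6.13, Tek at 5.83, Flt1 at 5.35 and Sox17 at 4.99 FPKM. Tie1 ran from 11.7 to 13.1 FPKM and did not overlap Kdr above it, whose lowest value was 13.6 FPKM, or Erg below it, whose highest was 8.88 FPKM. The order of Eng, Pecam1, Emcn and Kdr was not fixed, since their ranges over the embryos overlapped, and the same was true within the low group. The range of Cdh5 overlapped that of Eng, and in KOAC10-5 Eng, at 21.98 FPKM, was above Cdh5, at 20.9 FPKM. The spread among WT embryos differed between the genes, with a coefficient of variation from 1.24% for Tie1, 1.34% for Kdr and 1.85% for Tek to 10.9% for Sox17 and 21.0% for Erg.

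Loss of SLMAP3 was accompanied by no difference in these genes that passed the adjusted threshold. By limma on log2(FPKM + 1) with Benjamini-Hochberg adjustment over 16095 genes, 0 of the 10 had an adjusted p under 0.05, against 6 genes or 0.0373% of all genes tested. At an unadjusted p under 0.05 there were 3 of the 10, Flt1, Kdr and Pecam1, against 11.5% of all genes, and all 3 were higher in KO, against 5.27% of all genes in that direction. The KO values were all above the WT values for 4 of the 10, Flt1, Kdr, Tek and Pecam1, against 5.61% of all genes. The median log2 fold change of the 10 was 0.13, beside 0.01 over all genes tested. Above 0 were 8 of the 10, against 53.1% of all genes tested. In RNA of whole embryos, fewer endothelial cells and less RNA per endothelial cell cannot be told apart, and the same is true of more.

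**Figure D1:**
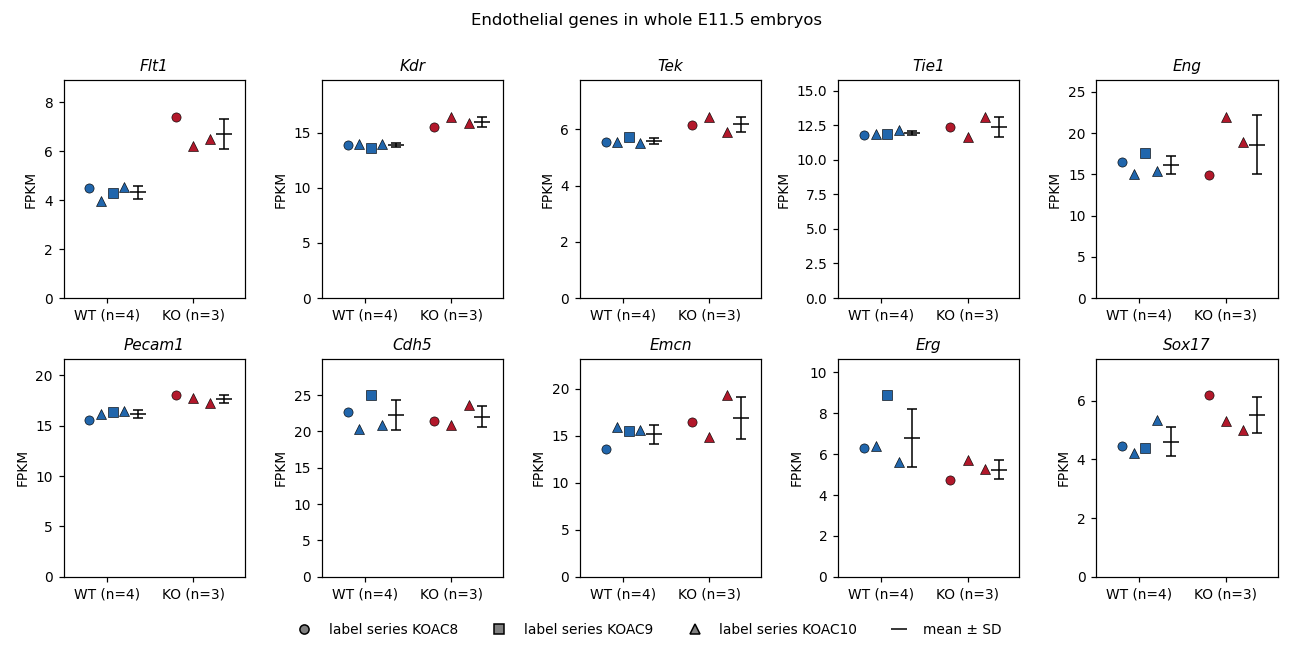
FPKM (y axis, from 0) of the 10 endothelial genes in each WT (blue, n = 4) and KO (red, n = 3) embryo, with the mean ± SD beside the points and the label series as the marker shape. The KO points of Flt1, Kdr, Tek and Pecam1 all lie above the WT points, whereas those of the other 6 genes overlap them.

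Among the VEGF receptors, Flt1 stood furthest from the WT level. Flt1 was at 7.41, 6.22 and 6.51 FPKM in KO embryos and at 4.48, 3.96, 4.29 and 4.55 FPKM in WT embryos, so that the lowest KO value was above the highest WT value. The mean was 6.71 ± 0.62 (SD, n = 3) in KO and 4.32 ± 0.26 (SD, n = 4) in WT, which is 55.4% more, with a log2 fold change of 0.53 ± 0.08 (SE, 95% interval 0.35 to 0.72). Its unadjusted p was 0.000252 and its adjusted p by limma 0.212, from 0.158 to 0.426 over the 16 alternative fits. Within the label series KOAC8, with 1 embryo a genotype, the difference was 0.62 on the log2 scale, and within KOAC10, with 2 embryos a genotype, it was 0.49. With log2 Afp as a covariate it was 0.52, close to the value without it.

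Kdr differed less and with a very small spread. It was at 15.5, 16.4 and 15.9 FPKM in KO and at 13.9, 13.9, 13.6 and 14.0 FPKM in WT embryos, again without overlap. The KO mean of 15.9 ± 0.47 FPKM (SD, n = 3) was 15.1% above the WT mean of 13.8 ± 0.18 FPKM (SD, n = 4). The log2 fold change of Kdr was 0.19 ± 0.05 (SE, 95% interval 0.08 to 0.30), with an adjusted p by limma of 0.286. It was 0.15 within KOAC8 and 0.20 within KOAC10.

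The ratio of Flt1 to Kdr compares the decoy with the signalling receptor inside an embryo, in a way that does not depend on how much endothelium that embryo held if both stem from the same cells. It was 0.478, 0.378 and 0.410 in KO embryos and 0.322, 0.284, 0.316 and 0.325 in WT embryos. All KO ratios were above all WT ratios, with means of 0.422 ± 0.051 (SD, n = 3) and 0.312 ± 0.019 (SD, n = 4). The difference was 0.43 on the log2 scale (exact permutation test over 35 splits of the embryos, p = 0.0286 on both sides, the lowest attainable, and 0.0715 after Benjamini-Hochberg adjustment over 5 ratios). A further pair of ratios to the endothelial cadherin Cdh5 were added after the values had been seen. Flt1 to Cdh5 was 0.345, 0.297 and 0.275 in KO and 0.198, 0.194, 0.172 and 0.218 in WT embryos, a difference of 0.64 on the log2 scale (exact permutation p = 0.0286, adjusted 0.0715). Kdr to Cdh5 was 0.671 to 0.786 in KO and 0.544 to 0.684 in WT embryos, which overlapped (difference 0.21, exact permutation p = 0.143, adjusted 0.179).

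The angiopoietin receptors differed from WT by small amounts. Tek, the receptor, was at 6.15, 6.45 and 5.92 FPKM in KO and 5.54, 5.54, 5.73 and 5.50 FPKM in WT embryos, without overlap. The log2 fold change of Tek was 0.12 ± 0.06 (SE, 95% interval -0.01 to 0.26), with an adjusted p by limma of 0.473. Tie1, which has no angiopoietin ligand of its own and modifies signalling by Tek, was at 12.4, 11.7 and 13.1 FPKM in KO and 11.8, 11.9, 11.9 and 12.1 FPKM in WT embryos. The KO values of Tie1 lay on both sides of the WT values, with a log2 fold change of 0.05 ± 0.06 (SE, 95% interval -0.08 to 0.18, adjusted p by limma 0.748) that was 0.01 without the KO embryo KOAC10-8 and 0.09 without KOAC10-5. The ratio of Tie1 to Tek was 2.02, 1.81 and 2.22 in KO and 2.12, 2.15, 2.08 and 2.20 in WT embryos, and the groups overlapped (difference -0.09 on the log2 scale, exact permutation p = 0.343, adjusted 0.343). That difference was -0.02 without KOAC10-5 and -0.16 without KOAC10-8.

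**Figure D2:**
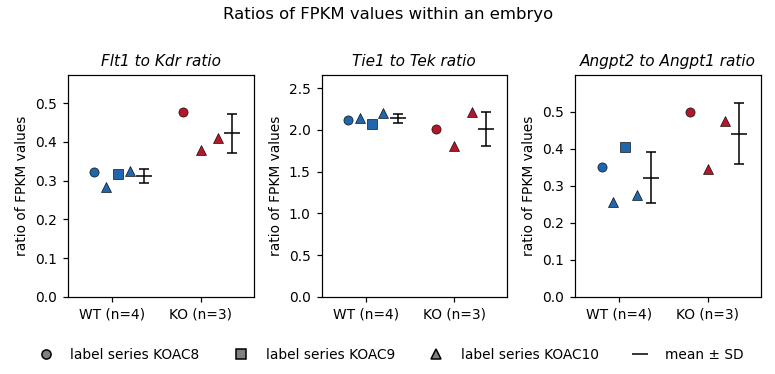
Ratio of the FPKM values of 2 genes within each embryo (y axis, no unit, from 0) for WT (blue, n = 4) and KO (red, n = 3), with the mean ± SD beside the points. The 3 KO ratios of Flt1 to Kdr, 0.378 to 0.478, lie above the WT ratios, 0.284 to 0.325, whereas the ratios of Tie1 to Tek and of Angpt2 to Angpt1 overlap.

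Endoglin varied among the KO embryos. Eng was at 14.9, 21.98 and 19.0 FPKM in KO and 16.5, 15.1, 17.5 and 15.4 FPKM in WT embryos, so that the KO embryos held both the lowest and the highest value of all. Its log2 fold change was 0.18 ± 0.13 (SE, 95% interval -0.12 to 0.48, adjusted p by limma 0.604). The sign differed between the label series, with -0.14 in KOAC8 and 0.40 in KOAC10, and the value was 0.06 without the KO embryo KOAC10-5 and 0.32 without the KO embryo KOAC8-6.

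Of the junction and surface genes, Pecam1 lay slightly above WT in every KO embryo, and Cdh5 and Emcn overlapped WT. Pecam1, a homophilic adhesion molecule of endothelial contacts that platelets also carry, was at 18.0, 17.7 and 17.2 FPKM in KO and 15.6, 16.1, 16.4 and 16.5 FPKM in WT embryos. No value overlapped, and the difference was 9.43% of the WT mean (log2 fold change 0.12 ± 0.05 SE, 95% interval 0.01 to 0.23, adjusted p by limma 0.405). Cdh5, the cadherin of endothelial adherens junctions, was at 21.5, 20.9 and 23.7 FPKM in KO and 22.6, 20.4, 24.95 and 20.9 FPKM in WT embryos. The means of Cdh5 were 22.01 ± 1.46 (SD, n = 3) and 22.2 ± 2.07 (SD, n = 4), with a log2 fold change of -0.01 (95% interval -0.20 to 0.19, adjusted p by limma 0.976) whose sign changed under 5 of the 16 alternative fits. Among these, the label series as a block and leaving out KOAC9-1 gave the same value, since the series KOAC9 holds that embryo only. Emcn, a sialomucin most abundant on veins and capillaries, was at 16.5, 14.9 and 19.3 FPKM in KO and 13.6, 15.9, 15.5 and 15.6 FPKM in WT embryos. The groups overlapped, with a log2 fold change of 0.14 ± 0.10 (SE, 95% interval -0.08 to 0.37, adjusted p by limma 0.591) that was 0.05 without the KO embryo KOAC10-8 and 0.23 without KOAC10-5.

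Of the 2 transcription factors among the 10, Erg lay below WT on average and Sox17 above. This ETS factor, which maintains endothelial identity and is also made in developing cartilage, was at 4.75, 5.71 and 5.25 FPKM in KO and 6.28, 6.41, 8.88 and 5.63 FPKM in WT embryos. The groups overlapped by a single WT embryo, KOAC10-2, and another, KOAC9-1, stood well above the rest. The log2 fold change of Erg was -0.31 ± 0.14 (SE, 95% interval -0.64 to 0.02, adjusted p by limma 0.463), and it was -0.19 without KOAC9-1. The label series as a block gave the same value, since the series KOAC9 holds that embryo only. Sox17, which specifies arterial endothelium and is also made in gut endoderm, was at 6.19, 5.33 and 5.01 FPKM in KO and 4.45, 4.24, 4.40 and 5.35 FPKM in WT embryos. KOAC10-2 lay among the KO embryos and the other WT embryos below them, and the log2 fold change of Sox17 was 0.21 ± 0.10 (SE, 95% interval -0.02 to 0.45, adjusted p by limma 0.465). It was 0.40 within KOAC8, 0.10 within KOAC10 and 0.14 without the KO embryo KOAC8-6.

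**Figure D3:**
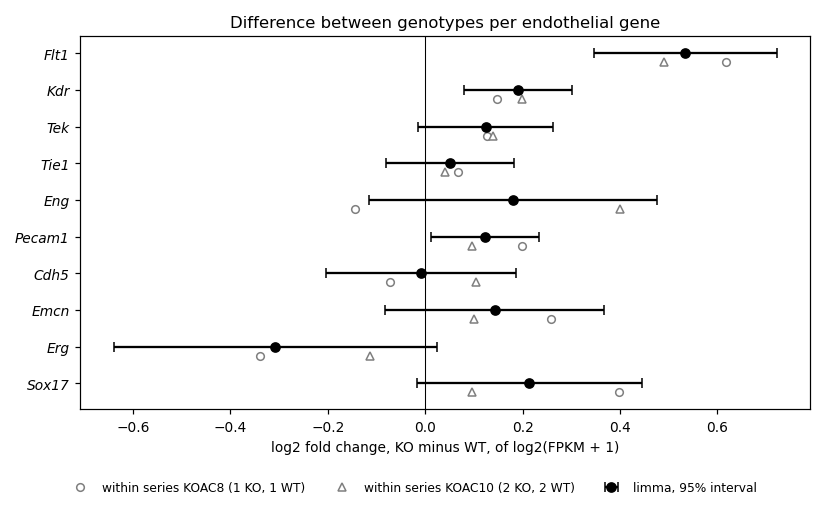
Log2 fold change, KO minus WT, of log2(FPKM + 1) for each endothelial gene (x axis, log2 units), as the limma estimate with its 95% interval (black) and as the difference within the label series KOAC8 and KOAC10 (open symbols). The intervals of Flt1, Kdr and Pecam1 exclude 0 before adjustment, and the values of Eng and Cdh5 differ in sign between the series.

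The ligands and co-receptors of the VEGF pathway were then taken as a list of 8 genes, none of which passed the adjusted threshold. At an unadjusted p under 0.05, 2 were higher and 1 was lower in KO, and the median log2 fold change was 0.09. Over all genes, 5.27% were higher and 6.19% lower at that threshold, and the counts of the lists that follow stand beside the same shares. Vegfa, the ligand of both Flt1 and Kdr, was at 92.1, 94.6 and 114 FPKM in KO and 64.3, 59.8, 62.9 and 67.6 FPKM in WT embryos. All KO embryos were above all WT embryos, with a log2 fold change of 0.64 ± 0.08 (SE), an unadjusted p of 0.000107 and an adjusted p by limma of 0.133. The difference of Vegfa was 0.51 within KOAC8 and 0.70 within KOAC10. Unlike its receptors, Vegfa is made by many tissues of the embryo. Vegfd was at 1.53 to 2.59 FPKM in KO and 1.15 to 1.55 FPKM in WT embryos (log2 fold change 0.34, adjusted p by limma 0.417, and 0.20 without the KO embryo KOAC10-8). The lower gene was Nrp2, a co-receptor on veins, lymphatics and neurons, at 22.9 to 28.9 FPKM in KO and 29.7 to 33.3 FPKM in WT embryos (log2 fold change -0.21, adjusted p by limma 0.421, and -0.12 without KOAC10-8).

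Of the angiopoietin ligands and TIE partners, 4 of 5 genes were tested, and 1 of them was past an unadjusted p of 0.05, in the lower direction. This was Svep1, an extracellular matrix protein reported to bind Tie1, at 2.38, 2.30 and 1.91 FPKM in KO and 3.19, 3.20, 3.15 and 3.00 FPKM in WT embryos, without overlap. The log2 fold change of Svep1 was -0.37 ± 0.08 (SE), with an adjusted p by limma of 0.275. Angpt1, the agonist of Tek, was at 4.92 to 5.43 FPKM in KO and 5.24 to 6.32 FPKM in WT embryos (log2 fold change -0.13, adjusted p by limma 0.562), and the median of the list was -0.04. The ratio of Angpt2, which can act against Angpt1 at Tek, to Angpt1 was 0.4996, 0.346 and 0.476 in KO and 0.351, 0.256, 0.405 and 0.275 in WT embryos. These overlapped (difference 0.46 on the log2 scale, exact permutation p = 0.143, adjusted 0.179).

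Genes of the pathway in which endoglin acts numbered 10, of which 8 were tested, with 2 higher and 0 lower in KO at an unadjusted p under 0.05, 0 past the adjusted threshold and a median log2 fold change of 0.11. Acvrl1, the endothelial receptor kinase that endoglin assists, was at 6.19, 8.49 and 6.34 FPKM in KO and 5.15, 4.28, 5.04 and 5.65 FPKM in WT embryos. KO and WT values of Acvrl1 did not overlap (log2 fold change 0.40 ± 0.13 SE, adjusted p by limma 0.348), and the KO embryo with its highest value, KOAC10-5, was also the one highest in Eng. Smad7, an inhibitor induced by the pathway, was at 9.48 to 11.9 FPKM in KO and 8.64 to 9.22 FPKM in WT embryos (log2 fold change 0.21, adjusted p by limma 0.397, and 0.13 without KOAC8-6). Id1, a target, was the most abundant of the list at 83.2 to 102 FPKM in KO and 73.8 to 81.7 FPKM in WT embryos (log2 fold change 0.18, adjusted p by limma 0.451, and 0.09 without KOAC10-8).

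**Figure D4:**
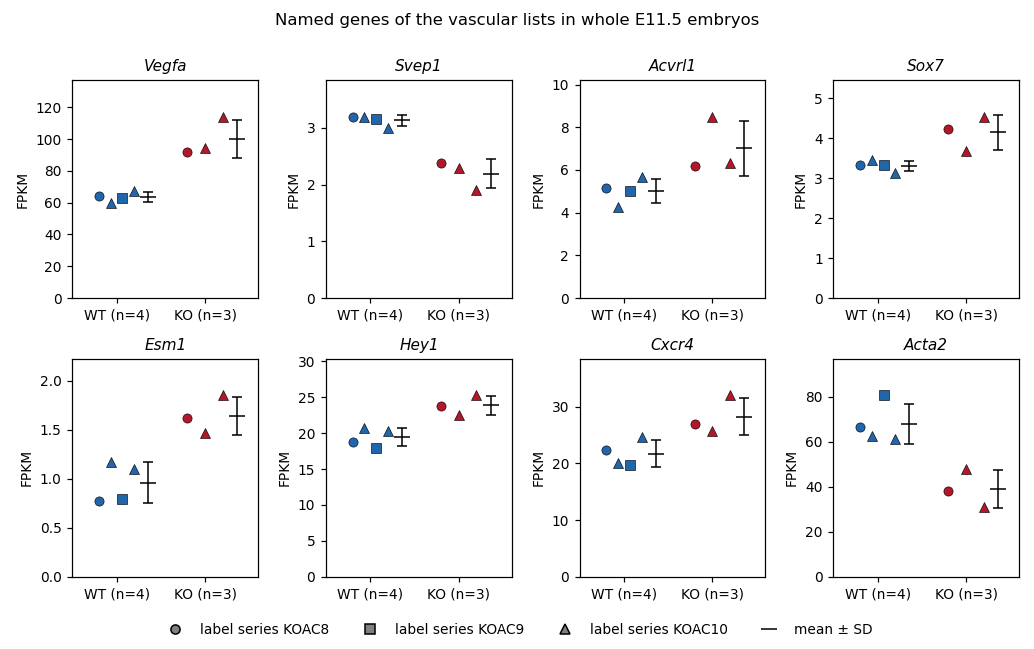
FPKM (y axis, from 0) of 8 genes named from the vascular lists in each WT (blue, n = 4) and KO (red, n = 3) embryo, with the mean ± SD beside the points. The KO points of Vegfa, Acvrl1, Sox7, Esm1, Hey1 and Cxcr4 lie above and those of Svep1 and Acta2 below the WT points, with no adjusted p under 0.05.

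Other endothelial transcription factors gave 19 tested genes of 20, of which 3 were higher and 1 lower in KO at an unadjusted p under 0.05, with a median log2 fold change of 0.03. Sox7, of the same SOX group as Sox17, was at 4.22, 3.68 and 4.53 FPKM in KO and 3.32, 3.45, 3.33 and 3.13 FPKM in WT embryos (log2 fold change 0.25 ± 0.08 SE, adjusted p by limma 0.353). Foxc2 was at 10.3 to 10.78 FPKM in KO and 8.50 to 9.94 FPKM in WT embryos, and Nr2f2, which specifies veins but is abundant in mesenchyme too, at 64.6 to 69.4 and 56.7 to 65.7 FPKM. Mef2c, a factor of endothelium and muscle alike, was the lower gene at 7.35 to 10.18 FPKM in KO and 10.49 to 15.7 FPKM in WT embryos (log2 fold change -0.47, adjusted p by limma 0.354).

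The junction and surface genes beyond the 10 formed a list of 30, all tested, with 7 higher and 0 lower in KO at an unadjusted p under 0.05, 0 past the adjusted threshold and a median log2 fold change of 0.11. Esm1, a secreted proteoglycan of VEGF-stimulated tip cells, was at 1.62, 1.47 and 1.85 FPKM in KO and 0.777, 1.17, 0.795 and 1.10 FPKM in WT embryos, without overlap (log2 fold change 0.43 ± 0.11 SE, adjusted p by limma 0.293). Its WT mean was 0.962 FPKM, so Esm1 reached the mean of 1 FPKM required for testing only through the KO embryos. Its place among the 7 therefore rests in part on that filter. Mcam was at 21.0 to 23.5 FPKM in KO and 19.3 to 19.8 FPKM in WT embryos (log2 fold change 0.16, adjusted p by limma 0.356). The others were Icam2, Mmrn2, Calcrl, Nos3 and Podxl, with log2 fold changes of 0.16 to 0.33, of which that of Calcrl was 0.22 without KOAC8-6 and that of Mmrn2 0.17 without KOAC10-8. Egfl7, the most abundant of the list, was at 81.3 to 91.1 FPKM in KO and 73.6 to 84.2 FPKM in WT embryos, which overlapped.

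Arterial and Notch genes lay mostly above WT, by small amounts. Of 11 tested, 7 were higher and 0 lower in KO at an unadjusted p under 0.05, against 5.27% of all genes higher, 0 had an adjusted p under 0.05, and the median log2 fold change was 0.15. The KO values lay above the WT values for 7 of the 11, against 5.61% of all genes. These were the same 7 genes, from the same embryos, so the 2 counts are not independent. Hey1, a Notch target, was at 23.8, 22.6 and 25.3 FPKM in KO and 18.8, 20.8, 18.0 and 20.2 FPKM in WT embryos (log2 fold change 0.28 ± 0.07 SE, adjusted p by limma 0.286). Cxcr4, the receptor of the chemokine Cxcl12, was at 27.0, 25.8 and 32.0 FPKM in KO and 19.8 to 24.8 FPKM in WT embryos (log2 fold change 0.36, adjusted p by limma 0.325). Dll4, the Notch ligand of arteries and tip cells, was at 3.47, 3.34 and 4.25 FPKM in KO and 2.54, 2.72, 2.78 and 3.13 FPKM in WT embryos (log2 fold change 0.30, adjusted p by limma 0.354). The other 4 of the 7 were Gja4, Efnb2, Notch4 and Unc5b, with log2 fold changes of 0.12 to 0.23. Notch1, the most abundant of the list, was uneven among WT embryos, at 23.6 to 56.3 FPKM, and at 36.7 to 41.6 FPKM in KO embryos. Hey1, Cxcr4, Efnb2 and Notch1 are made in neural tissue as well. Of the 6 neural progenitor markers, 5 were higher in KO at an unadjusted p under 0.05 and 0 lower, with a median log2 fold change of 0.46 and a summed level of 645 to 719 FPKM in KO and 586 to 665 FPKM in WT embryos. The part of neural tissue in the values of the arterial list was not tested.

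Venous and lymphatic genes did not share a direction. Of 8 tested, 1 was higher and 2 were lower at an unadjusted p under 0.05, with a median log2 fold change of -0.01. The higher gene was Nr2f2 and the lower were Nrp2 and Lyve1, a hyaluronan receptor of lymphatic and liver sinusoidal endothelium that macrophages carry too. Lyve1 was at 1.21, 1.32 and 1.26 FPKM in KO and 2.48, 1.85, 3.28 and 1.37 FPKM in WT embryos (log2 fold change -0.49 ± 0.19 SE, adjusted p by limma 0.418). Where liver transcripts were nearly missing, it was at 1.37 (KOAC10-2, WT), 1.85 (KOAC10-7, WT) and 1.32 FPKM (KOAC10-5, KO). Where they were present, Lyve1 was at 2.48 and 3.28 FPKM in WT embryos. In the KO embryos with liver transcripts, KOAC8-6 and KOAC10-8, it was at 1.21 and 1.26 FPKM, the lowest values of all. The part of liver in the values of Lyve1 was not tested.

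Mural cell genes, those of pericytes and vascular smooth muscle, had no common direction, with a median log2 fold change of -0.06. Of 10 tested, 0 were higher and 3 lower in KO at an unadjusted p under 0.05, against 6.19% of all genes lower, and 0 passed the adjusted threshold. Acta2, smooth muscle actin, was at 38.1, 47.8 and 31.1 FPKM in KO and 66.5, 62.6, 80.7 and 61.3 FPKM in WT embryos, without overlap (log2 fold change -0.79 ± 0.16 SE, adjusted p by limma 0.274). Tagln, another contractile gene, was at 17.0, 23.2 and 15.7 FPKM in KO and 27.4, 23.9, 33.0 and 23.8 FPKM in WT embryos (log2 fold change -0.52, adjusted p by limma 0.348). Cspg4, a proteoglycan of pericytes, was the other of the 3, with a log2 fold change of -0.31, and of -0.20 without the KO embryo KOAC10-8. In contrast, Pdgfrb, the receptor that marks pericytes and mesenchyme, was at 22.5 to 23.5 FPKM in KO and 22.6 to 23.0 FPKM in WT embryos. Early heart and skeletal muscle also make Acta2 and Tagln. Of the 6 skeletal muscle markers, 0 were higher and 4 lower at an unadjusted p under 0.05, with a median log2 fold change of -0.51 and a summed level of 26.1 to 44.0 FPKM in KO and 53.5 to 75.6 FPKM in WT embryos, while of the 6 heart muscle markers 3 were higher and 0 lower. Among the 4 lower skeletal muscle markers, Chrna1 had a WT mean of 1.40 FPKM but a KO mean of only 0.650. Its average over all embryos, 1.08, thus passed the filter of 1 FPKM through the WT embryos alone. The count of 4 therefore depends in part on that filter. The part of muscle in the values of Acta2 and Tagln was not tested.

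Endothelium of special sites was covered by short lists. Of 4 endocardial genes, 1 was past an unadjusted p of 0.05, Postn, a matrix protein of valve cushions and other mesenchyme, at 39.2, 46.2 and 29.3 FPKM in KO and 58.9, 52.2, 68.8 and 60.6 FPKM in WT embryos (log2 fold change -0.66 ± 0.16 SE, adjusted p by limma 0.286). Hapln1, a matrix link protein, was next at 3.91 to 6.86 FPKM in KO and 3.77 to 4.10 FPKM in WT embryos. Of 10 liver sinusoidal genes 4 were tested, with 0 higher and 1 lower, Lyve1. Maf had the next smallest unadjusted p (log2 fold change -0.23, adjusted p by limma 0.451). The most abundant gene of that list, Stab1, was at 13.4, 14.4 and 39.2 FPKM in KO and 49.4, 13.9, 36.8 and 44.2 FPKM in WT embryos, an uneven pattern in both genotypes.

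**Figure D5:**
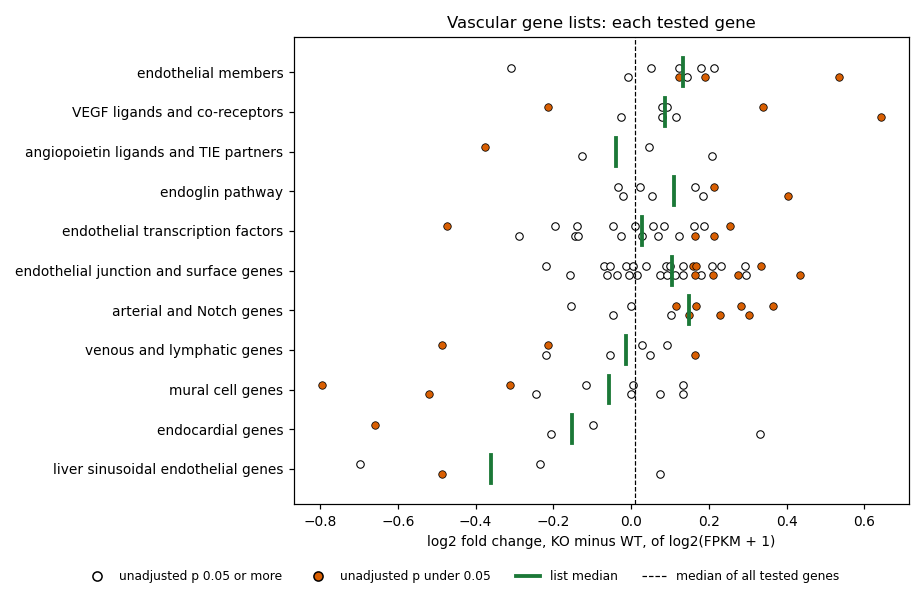
Log2 fold change, KO minus WT, of log2(FPKM + 1) (x axis, log2 units) of each tested gene in the endothelial genes and 10 vascular lists (rows), filled where the unadjusted p was under 0.05, with the list median (green bar) and the median of all genes tested (dashed line, 0.01). The arterial and Notch list has 7 filled points to the right and none to the left, and no point has an adjusted p under 0.05.

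Blood cells share part of these genes, and their markers are given for that reason. Among 5 platelet lineage markers, 8 macrophage markers and 6 tested blood progenitor markers, 0 were past an unadjusted p of 0.05 in either direction, whereas of 8 erythroid markers 0 were higher and 4 lower. The summed level of the platelet lineage markers was 24.96 to 66.3 FPKM in KO and 31.5 to 86.2 FPKM in WT embryos, and that of the macrophage markers 40.4 to 45.5 and 39.7 to 54.3 FPKM. Both ranges overlapped, and the part of blood cells in the values of Pecam1 was not tested. Summed erythroid markers were at 14497 to 19248 FPKM in KO and 21045 to 26545 FPKM in WT embryos. FPKM values are shares of a library, and the part of the erythroid transcripts in the values of the endothelial genes was not tested. The 6 neuron markers gave 0 past an unadjusted p of 0.05 and a median log2 fold change of -0.10.

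The profile of the 10 genes over the embryos was summarised as the mean of their z-scores, which was 0.45, 0.47 and 0.76 in KO and -0.615, -0.657, -0.024 and -0.384 in WT embryos. Of 11481 other genes that averaged 5 FPKM or more, those most alike over the 7 embryos were Gpi1 (Pearson r = 0.97), Arl3 (0.97), Tcim (0.96), Stk19 (0.96) and Hps1 (0.95). The KO values of this mean all lay above the WT values, of which that of KOAC9-1 was nearest to them. With the genotype means removed, r was 0.85 for Gpi1, 0.93 for Arl3, 0.72 for Tcim, 0.72 for Stk19 and 0.85 for Hps1. These values describe 7 libraries, which all genes share, and carry no test. Gpi1, a glycolytic enzyme, was at 227, 235 and 230 FPKM in KO and 179, 172, 206 and 194 FPKM in WT embryos.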

How the data were processed

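Messenger RNA of 7 whole E11.5 embryos, 3 KO and 4 WT by the labels, was sequenced from TruSeq RNA v2 libraries, one library per embryo. The FPKM values, 1 per gene and embryo, were computed and deposited by the authors. The submitters' processing notes name Salmon, DESeq2, MultiQC and the build GRCm38, and how the FPKM values were derived from them is not given in the sources used here. The columns of the authors' own comparison were not used: a mean signal per gene, the log2 fold change with its standard error, and p-values, all deposited by the authors.

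Genes that averaged 1 FPKM or more were compared on log2(FPKM + 1) with limma 3.58.1 in R 4.3.3 (lmFit, eBayes with trend, no covariate), with Benjamini-Hochberg adjustment over 16095 genes and a threshold of 0.05. A pseudocount of 1 understates changes of low genes. Ratios within an embryo were compared by exact permutation tests over 35 splits. Read counts were not used here, so that counting error is not given. The labels do not say whether the embryos are littermates. The limma p-values set the difference between genotypes against the spread between these embryos, moderated over all genes tested. Exact permutation p-values place the observed split among the 35. The fit was tested on simulated data.

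The genes named are Slmap, the 10 members, and of each of 19 other lists any gene past the threshold, the 2 tested genes with the smallest unadjusted p and the most abundant gene, with Afp, Alb and the 5 genes most like the members. Lists of 3 non-vascular tissues (Chrna1 apart) and of blood cells are given by counts, and so is that of hepatoblasts beyond Afp and Alb. Further genes (Nrp2, Dll4, Mef2c, Cspg4, Pdgfrb, Icam2, Mmrn2, Calcrl, Nos3 and Podxl among them) and the Cdh5 ratios were chosen after their values were seen. The members and lists were chosen with earlier results of these data known. Positions came from GENCODE M21 on GRCm38 and promoters from RefSeq on GRCm38.p6. Alternatives were a pseudocount of 0.1, no filter, a minimum mean of 5 FPKM, median-ratio size factors, quantile normalization, the label series as a block, Afp as a covariate, weights for embryo quality, eBayes in its robust form and leaving out each embryo.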

Additional observations from a re-analysis of the deposited data

Results flagged for a closer look

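Among 68 genes and ratios examined over the 4 WT embryos, 1 had a sample far from the others. Foxc2, a forkhead factor of vessels and mesenchyme, was at 9.94 FPKM in the WT embryo KOAC10-2 and at 8.50 to 8.64 FPKM in the other WT embryos, so that the gap was 0.898 of the range. Chance flags about 1 in 20 such groups, or 3.4 of 68. KOAC10-2 was also the WT embryo nearest to the KO embryos in Sox17 and Erg.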

How the results depend on the processing

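Under the 16 alternative fits, 0 of the 10 endothelial genes and 0 genes of the other lists had an adjusted p under 0.05, and the count of endothelial genes at an unadjusted p under 0.05 ran from 2 to 4. The sign of 9 of the 10 held in every fit that tested the gene, and Sox17 was not tested at a minimum mean of 5 FPKM. That of Cdh5 reversed with the label series as a block (0.046) and when an embryo was left out (-0.060 to 0.046 over the 7 embryos). The block and leaving out KOAC9-1 give the same estimates, since the series KOAC9 holds that embryo only. The difference in the Flt1 to Kdr ratio was 0.34 to 0.51 on the log2 scale with an embryo left out, and that in Flt1 to Cdh5 0.55 to 0.72, with exact permutation p of 0.0667 or 0.1, the smallest that 2 against 4 or 3 against 3 embryos allow. Within the series KOAC10 alone the Flt1 to Cdh5 difference was 0.48. The log2 fold change of Slmap ran from -0.67 to -0.50. Replicate numbers were given in accession order and pair no embryos. The label series KOAC8 and KOAC10, whose meaning the labels do not give, each hold both genotypes, and with the series as a block 0 of the 10 genes had an adjusted p under 0.05 and 2 an unadjusted p under 0.05. With 3 and 4 embryos, the exact permutation p cannot go below 0.0286, a limit that does not hold for limma. The depth behind each value is unknown beyond its relative size.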
